A study of Macaca mulatta with 9 samples.

Results

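The genes described here encode the stromal surface antigen THY1 and secreted proteins that sit in the extracellular matrix and signal to cells: CCN1 to CCN5 of the CCN family, POSTN, SPARC, THBS1 and TNC. They were taken by gene symbol from the annotation of the array, older symbols of the CCN genes included. Of the 10 genes, 8 had at least 1 probe set, of 14132 genes on the array with one, giving 16 probe sets of the 52766 tested, while POSTN and SPARC had none under their symbol and were not analysed here. By another test (SAM) on these arrays, the study counted THY1 and CCN5 (its locus number LOC717872) as raised in the old against the young group. THBS1 was counted as reduced in the old against the middle-aged group. All of them were then picked for PCR, so their values here are not independent evidence of that choice. In that PCR, THY1 and CCN5 rose against the young group without reaching significance. The fall of THBS1 against the middle-aged group was significant there.

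The study compared ovaries of rhesus monkeys of different ages, from 3 young monkeys (3 to 4 years), 3 middle-aged monkeys (7 to 8 years) and 3 old monkeys (18 to 19 years). Young monkeys were cycling but had never bred, middle-aged monkeys were fertile, and old monkeys no longer reproduced. Young and middle-aged ovaries were collected near proestrus by breeding records, so that age and reproductive state cannot be told apart. All animals were untreated and perfused with buffer before the ovary was frozen, and each array held RNA from part of the ovary of 1 monkey. The tissue is a mixture of cell types, and fewer cells of a type and less RNA per cell cannot be told apart.

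Matricellular proteins are secreted into the matrix but bear little of its load. They bind integrins, proteoglycans and growth factors and so alter how cells attach, divide and respond to signals. The CCN proteins are built from shared modules, of which CCN5 lacks the C-terminal cystine knot. CCN1 and CCN2 are induced within minutes to hours by serum, stretch, TGF-beta and the YAP/TAZ co-activators of the Hippo pathway. THY1 (CD90) is a glycolipid-anchored protein of fibroblasts, pericytes, some endothelial cells and neurons.

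Intensities are given on the linear scale, on which the lowest value of any array was 3.14 and the highest 26460, with array medians of 24.2 to 25.8. Correlations between pairs of arrays over all probe sets were 0.947 to 0.989 on the log2 scale. The log2 ratio of the 3' to the 5' actin control, a sign of RNA integrity, was 4.09 to 4.34 in young, 3.74 to 4.35 in middle-aged and 3.89 to 4.38 in old ovaries. The 3' control thus read far above the 5' control on every array. Ovarian transcripts were present, such as STAR at 646 to 21680, while the oocyte gene ZP3 was 46.3 to 52.4 in old against 582 to 2835 in young ovaries. No detection calls were used here, and levels of different probe sets are not set against each other.

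None of the 16 probe sets passed the threshold in any comparison (limma, adjusted p under 0.05 over all probe sets and a fold of at least 1.5). THY1, CCN5 and THBS1, which the study counted as different by SAM, thus did not pass here. Their folds in the study's comparisons matched its array ratios, for THY1 on the S2 probe set and for THBS1 on MmugDNA.4046.1.S1_at. Over all probe sets, 0.155% passed it between old and young, 0.0341% between old and middle-aged and 0.0019% between middle-aged and young ovaries, and 0.116% when old ovaries were set against the other 6. At an unadjusted p under 0.05, 3 probe sets were higher and 1 was lower in old than in young ovaries, 25% of the 16 against 13.5% of all (5.58% higher and 7.89% lower). The count between old and middle-aged ovaries was again 3 higher and 1 lower, against 7.87% of all (3.08% higher and 4.79% lower). Between middle-aged and young ovaries 3 were higher and none lower, 18.8% of the 16 against 3.18% of all (1.45% higher). The 3 higher in old ovaries in both comparisons were both THY1 probe sets and CCN5, and the 1 lower was a THBS1 probe set. Those higher in middle-aged than in young ovaries were both THY1 probe sets and CCN1. Probe sets of 1 gene share their transcript and are not separate evidence. The median log2 difference of the 16 was 0.11 between old and young, −0.20 between old and middle-aged and 0.31 between middle-aged and young ovaries, against 0.01, 0.02 and −0.01 over all probe sets.

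**Figure D1:**
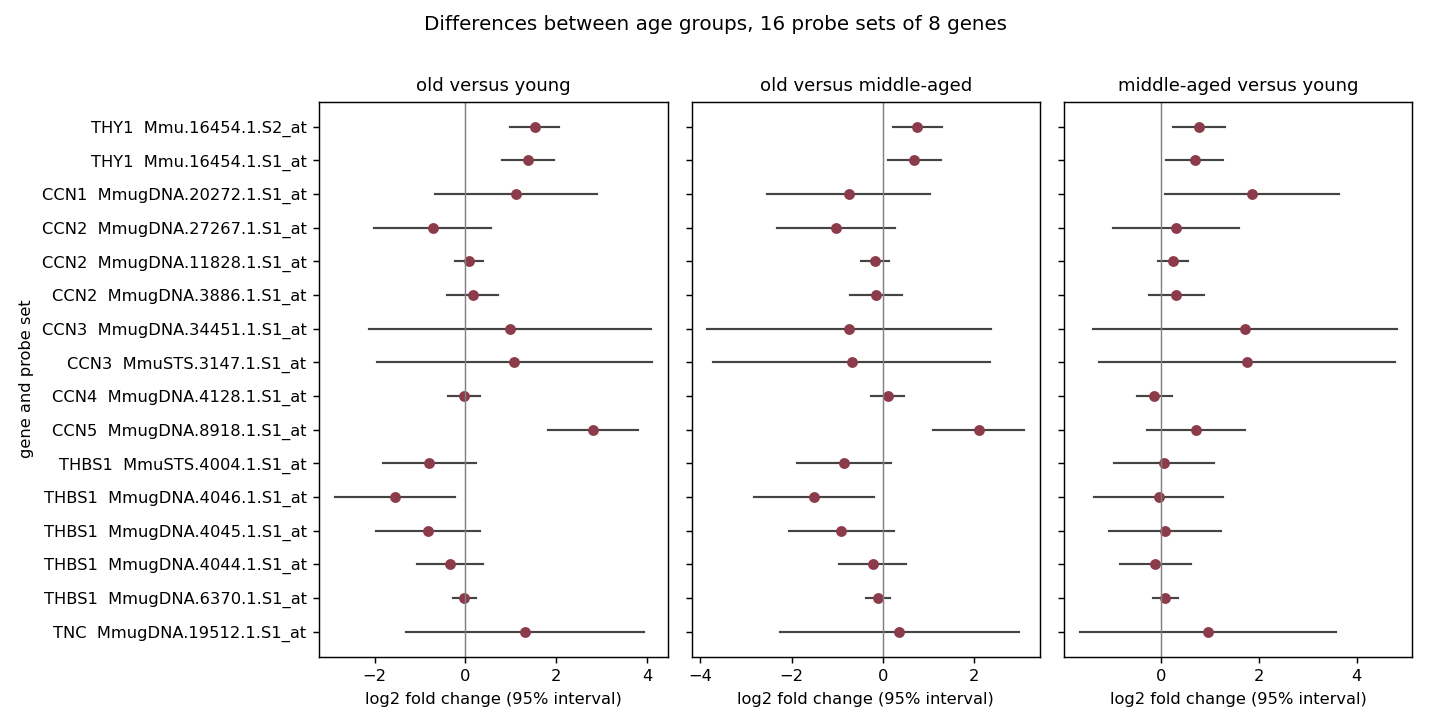
Log2 difference of each of the 16 probe sets in the 3 comparisons between age groups (limma), with 95% confidence intervals from the spread within groups over the 9 arrays. The interval of THY1 between old and young ovaries runs 0.99 to 2.06 and that of CCN5 1.81 to 3.81, while those of CCN3 and TNC are the widest and include 0.

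THY1 was higher in every old ovary than in every young one on both of its probe sets. On the brighter probe set (S2) the intensities were 445, 518 and 619 in young, 822, 840 and 1035 in middle-aged and 1811, 1038 and 1803 in old ovaries. The 3 age groups did not overlap, although the second old ovary lay just above the highest middle-aged one. The means were 527 ± 87.6 in young, 899 ± 118 in middle-aged and 1551 ± 444 in old ovaries (SD, n = 3 each). The log2 difference between old and young was 1.52 (SE 0.24), a fold of 2.88, with adjusted p = 0.0664 in limma. Between old and middle-aged ovaries it was 0.75 (adjusted p = 0.51), and between middle-aged and young ovaries 0.78 (adjusted p = 1).

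The other THY1 probe set (S1) read 266, 341 and 311 in young, 505, 444 and 525 in middle-aged and 1093, 515 and 877 in old ovaries. Here the second old ovary lay within the middle-aged range, and the log2 difference between old and young was 1.38 (SE 0.25, adjusted p = 0.0942). Without that ovary, both probe sets passed the threshold between old and young, with log2 differences of 1.69 and 1.79 and adjusted p = 0.0179 for each (limma).

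The second old ovary also stood apart from the other old ones in the summed endothelial markers. Of the 11 markers, 10 were measured, and their summed intensity was 2126 to 2870 in young and 2761 to 5786 in middle-aged ovaries, and 9004, 2693 and 11310 in the old ovaries. The median log2 difference of the 10 between old and young ovaries was 1.41, with 8 of 10 higher at an unadjusted p under 0.05 and none passing the threshold. Over all genes, 18.8% had such a p in either direction on their brightest probe set. KDR, a marker picked after its values were seen, was higher in every old ovary than in the other 6 (log2 difference 1.35). No other of the 10 markers separated the old ovaries from the other 6. TIE1, a receptor of endothelial cells, read 758, 181 and 426 in old ovaries against 120 to 147 in young ones. In middle-aged ovaries it read 175 to 230, a range that held the second old ovary. Summed stromal fibroblast markers (11 of 12 measured) were 27670 to 29370 in young, 32770 to 46310 in middle-aged and 18490 to 39340 in old ovaries. The old range of the sum overlapped both others, and the young and middle-aged sums did not overlap. The median over the markers of log2 intensity minus the gene's mean did overlap, at −0.31 to −0.18 in young and −0.23 to 0.75 in middle-aged ovaries. Against young ovaries, 5 were higher and 6 lower in old ones. Against middle-aged ovaries, all 11 were lower in old ones, with a median log2 difference of −0.42. Of these, 3 had an unadjusted p under 0.05 in limma, where 11.3% of all genes did, and none passed the threshold. COL1A1 and COL1A2 were lower without overlap (−1.28 and −0.96). The part of either cell type in the THY1 values was not tested.

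CCN5 (WISP2), which in cultured smooth muscle restrains proliferation, had the largest old against young difference of the 16 probe sets. Its only probe set (MmugDNA.8918.1.S1_at) read 135, 57.7 and 95.6 in young, 157, 91.3 and 232 in middle-aged and 997, 518 and 497 in old ovaries. All 3 old ovaries were more than double the highest of the other 6, while young and middle-aged ovaries overlapped. The means were 96.2 ± 38.8, 160 ± 70.5 and 671 ± 283 in young, middle-aged and old ovaries (SD, n = 3 each). The log2 difference between old and young was 2.81 (SE 0.44), a fold of 7.00, with adjusted p = 0.0679. Between old and middle-aged ovaries it was 2.09 (fold 4.26, adjusted p = 0.315), and between middle-aged and young ovaries 0.72 (adjusted p = 1). Against the other 6 ovaries it was 2.45 (SE 0.38, adjusted p = 0.0616).

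The old ovary with the highest CCN5 also had the highest STAR and the highest summed markers of theca and luteal cells. Only 3 of these 7 markers were measured, and they summed to 982 to 3861 in young and 984 to 5102 in middle-aged ovaries, and to 24100, 15410 and 5913 in the old ones. STAR, which carries cholesterol into mitochondria for steroid synthesis, read 646 to 2090 in young and 663 to 2942 in middle-aged ovaries, and 21680, 12230 and 3448 in old ones, and made up most of the sum in each old ovary. CYP17A1, the enzyme of theca cells that opens androgen synthesis, did not follow CCN5, at 184 to 1250 in young, 192 to 1341 in middle-aged and 337, 3053 and 2105 in old ovaries. The same old ovary, the first, also had the highest sums of granulosa cell markers (10510) and of neuron and Schwann cell markers (5581). The part of any of these cells in the CCN5 values was not tested.

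**Figure D2:**
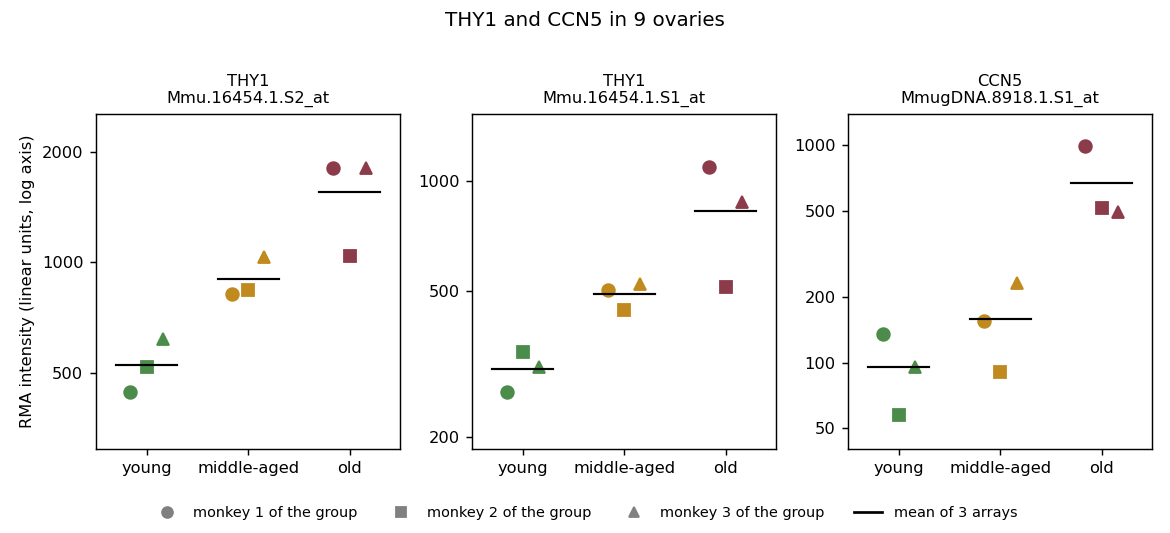
Intensity of both THY1 probe sets and of CCN5 in each of the 9 ovaries (log axis, linear RMA units), with symbols for monkeys and bars for group means. Every young ovary lies below every other on both THY1 probe sets, with old ovary 2 near the middle-aged ones at 1038 and 515, and CCN5 is at 497 to 997 in old ovaries and at most 232 elsewhere.

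THBS1, an inhibitor of vessel growth that binds CD36 and CD47 and activates latent TGF-beta, read lower in every old ovary than in any middle-aged one on its 3 brighter probe sets. The brightest (MmuSTS.4004.1.S1_at) read 2803, 1387 and 717 in young, 1437, 1139 and 1904 in middle-aged and 622, 868 and 983 in old ovaries. Old ovaries all lay below the middle-aged ones, while the third young ovary lay inside the old range. The log2 difference was −0.85 between old and middle-aged (adjusted p = 0.696) and −0.80 between old and young ovaries (adjusted p = 0.481).

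The largest THBS1 difference was that of MmugDNA.4046.1.S1_at, at 655, 296 and 104 in young, 302, 190 and 316 in middle-aged and 80.8, 118 and 82.8 in old ovaries. Its log2 difference was −1.56 (SE 0.58) between old and young ovaries, 2.94-fold lower, with adjusted p = 0.3, and −1.51 between old and middle-aged ovaries (adjusted p = 0.59). The third bright probe set (MmugDNA.4045.1.S1_at) gave −0.83 and −0.92 in these comparisons (adjusted p = 0.511 and 0.71). On it the second old ovary, at 90.0, lay just below the lowest middle-aged one, at 92.15. The other 2, at 27.2 to 73.2 and 11.2 to 14.5 over the 9 ovaries, gave −0.34 and −0.03 between old and young ovaries with overlapping groups. In none of the 5 did old and young ovaries separate. Platelets hold THBS1 protein, and 7 of 8 platelet markers, measured at sums of 227 to 315 in young, 242 to 311 in middle-aged and 217 to 298 in old ovaries, overlapped between ages. Single markers differed: the platelet receptor subunit GP9 read 74.3, 146 and 164 in young, 70.0, 75.1 and 138 in middle-aged and 31.9, 50.8 and 28.4 in old ovaries, all old ovaries lying below the others. The chemokine PPBP was at 4.92 to 7.19 in young, 6.97 to 8.33 in middle-aged and 23.0, 6.82 and 18.9 in old ovaries. Neither passed the threshold, and the part of platelets in the THBS1 values was not tested.

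**Figure D3:**
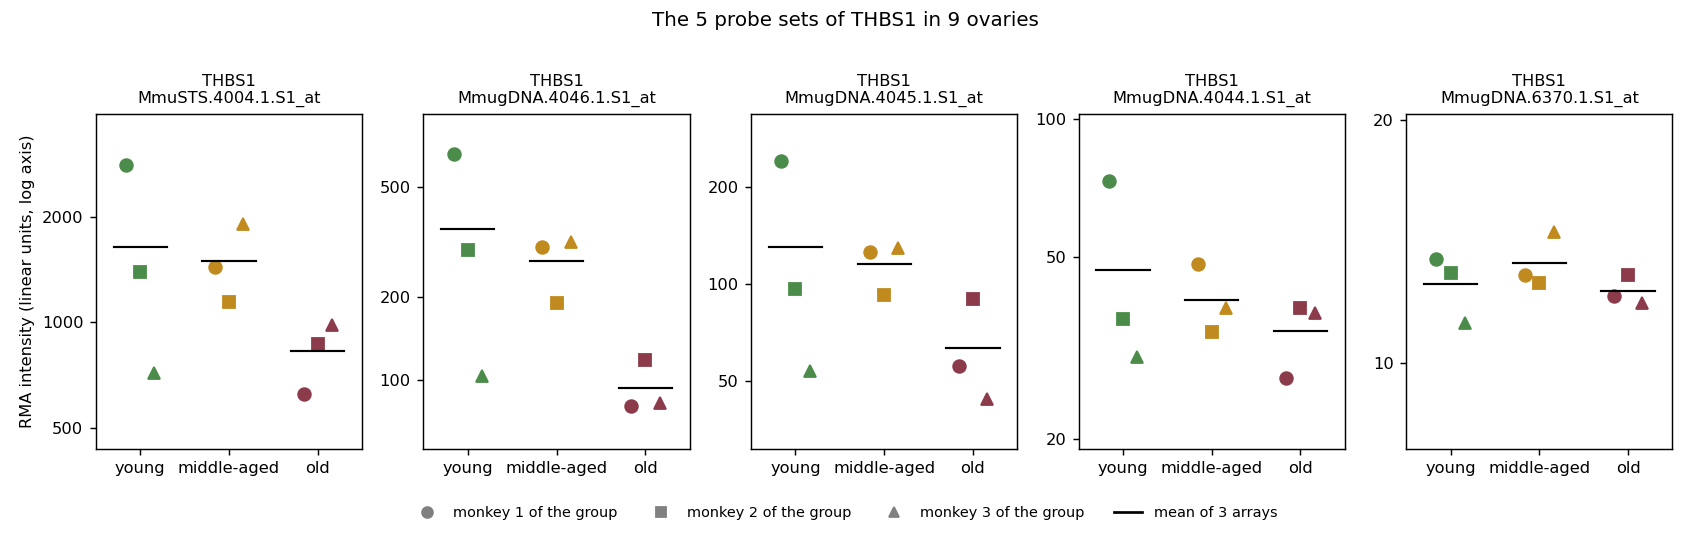
Intensity of the 5 THBS1 probe sets in each ovary (log axis, linear RMA units), with bars for group means. On the 3 brighter ones every old ovary lies below every middle-aged one, and the first young ovary is the highest of all 9, at 2803 on the brightest.

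CCN1 (CYR61), which binds integrins and promotes cell adhesion and vessel growth, varied widely between monkeys of the same age. It read 1122, 291 and 132 in young, 1000, 875 and 2361 in middle-aged and 1315, 402 and 823 in old ovaries. None of the 3 comparisons passed the test, and old ovaries overlapped both younger groups. The log2 difference was 1.11 between old and young (adjusted p = 0.575), −0.75 between old and middle-aged (adjusted p = 0.853) and 1.86 between middle-aged and young ovaries (adjusted p = 1). Its SD within groups was 1.12 on the log2 scale, larger than that of 98.7% of all probe sets, whose median was 0.209.

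The sum of immediate early genes, a list of fast-induced transcription factors and their feedback regulators, was, like CCN1, lowest in the second and the third young ovaries. It was highest in the third middle-aged one. The 8 of 14 that were measured summed to 5450, 2199 and 2252 in young, 3728, 4329 and 8957 in middle-aged and 8334, 3815 and 5677 in old ovaries. FOS, a subunit of the AP-1 factor, read 993, 207 and 74.7 in young, 477, 1180 and 1899 in middle-aged and 1133, 674 and 591 in old ovaries. FOS was also among the genes most like CCN1 over the 9 arrays (r = 0.92), after CLSPN (r = 0.928), a replication checkpoint protein. JUNB was also highest in the third middle-aged ovary, at 335. DUSP1, a phosphatase of MAP kinases, was 3936, 1502 and 2356 in old against 1213, 577 and 547 in young ovaries (log2 difference 1.73), and 971, 1225 and 3093 in middle-aged ones. Both DUSP1 and NR4A1 were highest in the first old ovary, NR4A1 at 584 against 363 in the third middle-aged one. The part of this response in the CCN1 values was not tested.

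CCN2 (CTGF), a mediator of TGF-beta in fibrosis, was lower in every old than in every middle-aged ovary on its brightest probe set. This probe set (MmugDNA.27267.1.S1_at) read 2014, 1337 and 647 in young, 1684, 1267 and 1570 in middle-aged and 1132, 303 and 1143 in old ovaries. The second old ovary was far below the others, and 2 of the 3 old ovaries lay within the young range. The log2 difference was −1.03 between old and middle-aged (adjusted p = 0.708) and −0.72 between old and young ovaries (adjusted p = 0.621). The other probe sets did not share it: MmugDNA.11828.1.S1_at stayed between 164 and 236 in all 9 ovaries, with differences of −0.18 and 0.07, and MmugDNA.3886.1.S1_at was dim, at 14.7 to 27.0.

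CCN1 and CCN2, on their brightest probe sets, correlated over the 9 ovaries with Pearson r = 0.58 (two-sided exact permutation p = 0.104) and Spearman rho = 0.517 (exact permutation p = 0.162). Without young ovaries 2 and 3, farthest from the median of CCN1, r was 0.764 (exact permutation p = 0.079). Within age groups, on deviations from the group means, r was 0.799. This was the only pair tested, since the other planned pairs needed SPARC.

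**Figure D4:**
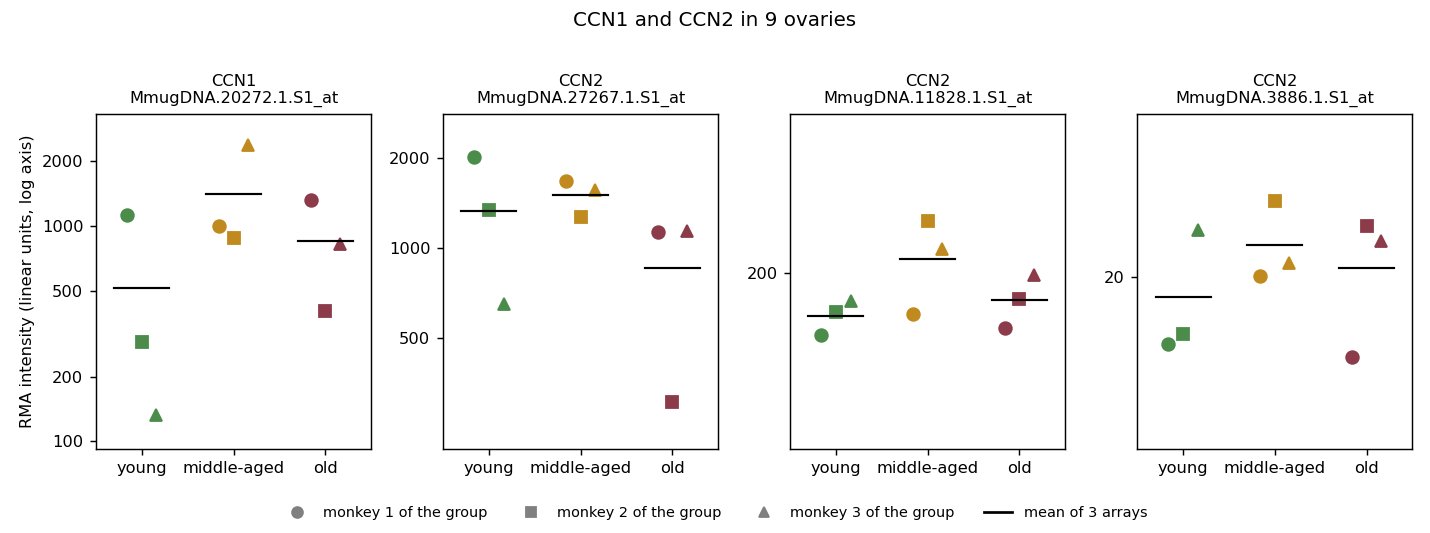
Intensity of CCN1 and the 3 CCN2 probe sets in each ovary (log axis, linear RMA units), with bars for group means. CCN1 spans 132 to 1122 among young ovaries alone, and old ovaries are below middle-aged ones on the brightest CCN2 probe set, at 303 to 1143 against 1267 to 1684.

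CCN3 (NOV), which in other tissues often opposes CCN2, was high in 2 ovaries of different ages. Its brighter probe set (MmugDNA.34451.1.S1_at) read 34.7, 58.4 and 118 in young, 149, 64.5 and 873 in middle-aged and 57.1, 31.9 and 1002 in old ovaries. The third middle-aged and the third old ovary stood far above the others, and the remaining old ovaries lay within or below the young range. The other probe set (MmuSTS.3147.1.S1_at) had the same shape, at 308 and 345 in these 2 ovaries and 13.3 to 62.6 in the other 7. The log2 differences between old and young, 0.98 and 1.07 (adjusted p = 0.798 and 0.768), rested on 1 monkey: without the third old ovary the first was −0.54. The within-group SD, 1.96 and 1.92 on the log2 scale, exceeded that of 99.9% of probe sets.

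TNC, a large glycoprotein of tendon, smooth muscle and healing tissue, was high in the same 2 ovaries and in 1 more. It read 16.1, 27.0 and 25.2 in young, 15.4, 23.2 and 223 in middle-aged and 91.9, 12.1 and 151 in old ovaries. The second old ovary had the lowest value of all 9. The log2 difference between old and young was 1.31 (adjusted p = 0.657), with a within-group SD of 1.65, above 99.7% of probe sets. The difference was 2.41 without the second old ovary and 0.59 without the third.

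Summed smooth muscle and pericyte markers and summed stromal fibroblast markers were highest in the 2 ovaries with high CCN3, but single markers differed. The 8 of 12 smooth muscle and pericyte markers that were measured summed to 16630 in the third middle-aged and 23190 in the third old ovary. They summed to 5296 to 10480 in the other 7. The fibroblast markers summed to 46310 and 39340 in these 2 ovaries and to 18490 to 36260 in the others, and the endothelial sum was highest in the third old ovary, at 11310. TAGLN, an actin-binding protein of smooth muscle, read 6026 and 7729 in these 2 ovaries and 1367 to 3909 in the rest. MCAM, also of the smooth muscle and pericyte list, was highest in the first old ovary, at 3645 against 1384 and 1794 in these 2 ovaries. The fibroblast markers COL1A1 and COL1A2 were lowest of all 9 in the third old ovary, at 227 and 4032. The genes most like CCN3 over the 9 arrays were ZEB1 (r = 0.961), a transcription factor of mesenchymal cells, PDGFA (r = 0.952), a growth factor for smooth muscle and fibroblasts, and SLMAP (r = 0.951), a membrane-associated protein of muscle. The part of these cell types in CCN3 and TNC was not tested.

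**Figure D5:**
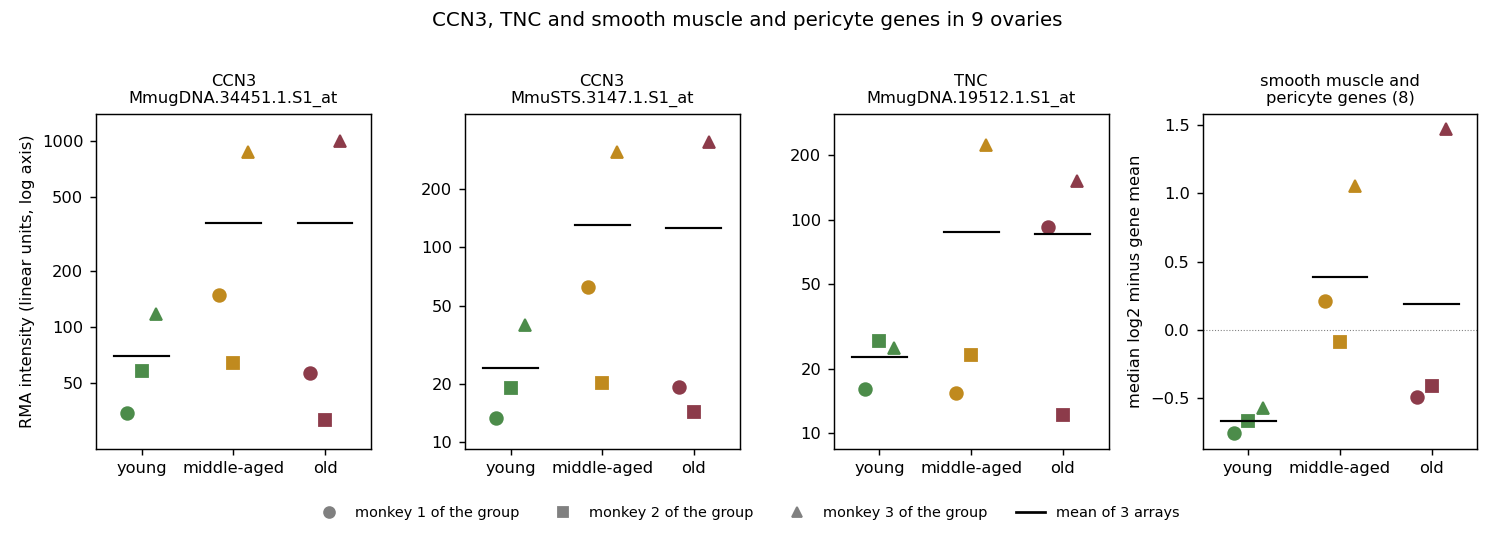
Intensity of both CCN3 probe sets and of TNC in each ovary (log axis, linear RMA units), with bars for group means. The last panel gives the median, over 8 smooth muscle and pericyte genes, of log2 intensity minus the gene's mean (linear axis). Middle-aged ovary 3 and old ovary 3 are the highest on every panel, at 873 and 1002 on the brighter CCN3 probe set and 1.05 and 1.47 on the last panel.

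CCN4 (WISP1), a target of WNT signalling, was dim and even. Its single probe set lay between 8.22 and 12.2 in all 9 ovaries, near the first quartile of each array (at most 9.57), and its log2 differences were −0.04 between old and young and 0.10 between old and middle-aged ovaries. The 95% intervals ran −0.39 to 0.32 and −0.25 to 0.46.

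Old and middle-aged ovaries did not overlap on 6 of the 16 probe sets. The gap was small on the brighter THY1 probe set (1038 against 1035) and on MmugDNA.4045.1.S1_at of THBS1 (90.0 against 92.15). Between old and middle-aged ovaries, 2 were higher (CCN5 and a THY1 probe set) and 4 lower (3 of THBS1 and 1 of CCN2) without overlap, 37.5% of the 16 against 11.8% of all (5.33% higher and 6.49% lower). Between old and young ovaries the 3 without overlap, both THY1 probe sets and CCN5, were all higher, 18.8% of the 16 against 7.38% of all probe sets that were higher without overlap. Between middle-aged and young ovaries they were both THY1 probe sets, higher in middle-aged ovaries, 12.5% against 4.43% of all that were higher without overlap. Between old ovaries and the other 6 they were the brighter THY1 probe set and CCN5, higher in old ovaries, 12.5% against 2.45% of all that were higher without overlap.

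No gene passed the threshold in 4 pathway lists of matricellular relatives, receptors, the TGF-beta pathway and the Hippo pathway. Each gene was read on its brightest probe set, of which 18.8% over all genes had an unadjusted p under 0.05 between old and young ovaries. Of 15 measured matricellular relatives, such as other thrombospondins and SPARC-like proteins, 2 were higher at that level and none lower, with a median log2 difference of 0.11. SPOCK2, a matrix proteoglycan of the SPARC family, read 121 to 142 in young, 184 to 191 in middle-aged and 613, 162 and 490 in old ovaries, with the second old ovary low as for THY1. THBS2, the closest relative of THBS1, read 454, 1195 and 1604 in old against 920 to 1195 in young ovaries. It read 1245 to 3176 in middle-aged ovaries, which overlapped the old ones.

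Among 14 measured receptors and clearance proteins, 1 was higher and 1 lower at that level between old and young ovaries, with a median of 0.08. STAB1, a scavenger receptor that takes up SPARC, read 138 to 192 in young, 158 to 199 in middle-aged and 261, 235 and 330 in old ovaries, the old ones all above the others (log2 difference 0.81 between old and young). SDC4, a syndecan that binds matrix ligands with integrins, was lower in old than in young ovaries by a log2 difference of −0.45. Between old and middle-aged ovaries its difference was −0.05.

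Of 11 measured genes of the TGF-beta pathway, 2 were higher and none lower at that level, with a median of −0.06. TGFBR3, the betaglycan co-receptor that also binds inhibin, read 3762, 5751 and 4162 in old against 1697 to 3064 in young ovaries (log2 difference 0.84). SMAD7, an inhibitor within the pathway, read 227, 144 and 331 in old against 98.7 to 129 in young ovaries (0.94). In middle-aged ovaries TGFBR3 read 2906 to 4614 and SMAD7 133, 138 and 347, and both overlapped the old ones.

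Of 19 measured genes of the Hippo pathway, which restrains YAP and TAZ, none was higher and 4 were lower at that level, with a median of −0.22. LATS1, the kinase that phosphorylates YAP, read 1214 to 1472 in young, 1209 to 1491 in middle-aged and 955, 1141 and 886 in old ovaries, and the old ovaries did not overlap the others. AJUBA, a LIM protein that inhibits LATS kinases, read 176, 112 and 211 in old against 243 to 331 in young ovaries (log2 difference −0.87). In middle-aged ovaries it read 174 to 323, overlapping the old ones. Of the YAP targets ANKRD1 and FJX1, ANKRD1 was dim at every age, at 5.89 to 23.2 in young, 5.72 to 8.48 in middle-aged and 5.89 to 6.02 in old ovaries. FJX1 read 151, 40.7 and 59.4 in old against 140 to 193 in young ovaries. Its middle-aged values, 72.8 to 101, lay within the old range.

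The genes whose brightest probe set was most like that of each member over the 9 arrays were sought among 10489 brighter genes, as a description without a test, since all were measured on the same 9 arrays. For THY1 they were FAM20A (r = 0.97), a partner of a secretory-pathway kinase, STX2 (r = 0.965), a membrane-fusion protein, and SH3BGRL (r = 0.962). FAM20A read 65.6 to 76.6 in young, 98.0 to 114 in middle-aged and 222, 129 and 214 in old ovaries. For CCN5 they were FXYD6 (r = 0.962), a regulator of the sodium pump, IGF2R (r = 0.95), a receptor that clears IGF2, and NNMT (r = 0.944), a methyltransferase of nicotinamide. FXYD6 read 506 to 768 in young, 734 to 923 in middle-aged and 2983, 1389 and 1387 in old ovaries. For TNC they were SCHIP1 (r = 0.971), GRAMD2B (r = 0.936) and EML1 (r = 0.935), for THBS1 RWDD1 was closest (r = 0.904), and for CCN2 CCDC102A (r = 0.93).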

How the data were processed

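RNA from part of the ovary of each of 9 rhesus monkeys was hybridised to 1 Affymetrix rhesus array. The authors deposited intensity values on a linear scale after RMA, per the labels, with biotin as the label. The study's methods name another software with LOWESS and dye reversal, which is not the processing the labels give. RMA sets all arrays to similar distributions, so a shift of the whole transcriptome is removed, and the number of arrays limits the precision. Groups came from the sample labels. The array's 99 controls were set aside. Of the 52766 other probe sets, 24956 had 1 gene symbol in the platform annotation (14132 genes), 361 several and 27449 none. Former gene symbols were replaced by current ones from a list of aliases.

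Intensities were taken to log2 and fitted in limma 3.58.1 (R 4.3.3) with 1 mean per age group over all 9 arrays, eBayes and Benjamini-Hochberg adjustment over all 52766 probe sets. A call needed a fold of 1.5 or more together with an adjusted p under 0.05. Confidence intervals are 95% with 6 residual degrees of freedom before moderation. The scripts were tested on simulated data. Alternatives were another scaling, 16 added before log2, brighter probe sets alone, no fold minimum, trend and robust eBayes, array weights, the compared groups alone, the replicate number as a block, the mean of a gene's probe sets and each array left out.

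Every member and probe set is named. Of the pathway lists, up to 4 genes with the smallest p in any comparison between ages could be named, of the cell type lists up to 2, and 3 most alike genes per member. KDR was named outside this rule. The members and lists were chosen with earlier results of these data known.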

Additional observations from a re-analysis of the deposited data

How the results depend on the processing

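No member was called in the main analysis, and under alternatives only THY1 and CCN5 were. The number of member probe sets called between old and young ovaries was 0 to 2 when 1 array was left out. Without the second old ovary it was 2, both of THY1, with adjusted p = 0.0179 each in limma. Between old ovaries and the other 6 it was again 0 to 2 over arrays left out, with THY1 at 0.0217 and 0.0222 without that ovary, and 1 with brighter probe sets alone (CCN5, adjusted p = 0.042). Of the alternatives for member genes and their correlation, 593 kept their direction and side of the threshold, 6 passed it, and 30 values of uncalled genes changed sign. THY1 between old and young ovaries ranged over 20 alternatives from 1.38 to 1.79 on the log2 scale (adjusted p 0.0179 to 0.263), CCN5 from 2.48 to 3.10 (0.0324 to 0.245) and THBS1 from −1.42 to −0.30. CCN3 ranged from −0.54 to 1.95, TNC from 0.59 to 2.41, CCN1 from 0.35 to 1.95 and CCN2 from −1.49 to −0.08, the last without the second old ovary. Without the third young ovary CCN1 was 0.41 and CCN2 −1.17, and without the first young ovary 1.95 and −0.35.

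The count of all probe sets called moved more. Between old and young ovaries it was 82, and 22 with 16 added, 27 with the compared groups alone, 4 to 198 with 1 array left out and 2 without the 3 arrays numbered 3, a setting chosen after seeing the data. Between old and middle-aged ovaries it was 18, and 9 with centred arrays, 1 with 16 added, 5 with the compared groups alone, 1 to 42 with 1 array left out and 2 without the arrays numbered 3. Between middle-aged and young ovaries it was 1, then 0 without the arrays numbered 3 and 0 to 1 with 1 array left out. The cause was not tested.

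Replicate numbers name different monkeys. Deviations from group means of same-numbered arrays correlated at −0.0247 to 0.41 and were not above 0.1 in every pair, the condition for taking the numbers as pairs. In 12 of 18 combinations of an array with another group the best match had the same number, a hint from the data and not from the design. With the replicate number as a block, 229 probe sets were called between old and young and 28 between old and middle-aged ovaries. The block also called 2 member probe sets between old and young (THY1, adjusted p = 0.0435, and CCN5, 0.0324) and 1, CCN5 at 0.0297, between old ovaries and the other 6.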
